A study of Mus musculus with 6 samples.

Results

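The genes described are 46 genes of mitosis and cytokinesis, chosen by name and read from tables of 55809 gene rows that held counts for 6 libraries of fetal mouse skin mast cells. All 46 passed the filter on low counts, which kept 16716 genes in all. The libraries came from C57BL6J fetuses at embryonic day 18.5, 3 from control offspring and 3 from prenatal stress offspring. Each library pooled sorted cells of 4 fetuses, which makes 12 mice per group. The dams of both groups were mated at 8 to 10 weeks of age. Those of the stress group were held in perforated tubes, brightly lit, in 3 sessions of 30 minutes a day. The control dams were left undisturbed. The stress ran from embryonic day 13.5 to 18.5 in the design text and from day 13 to 18 in the treatment protocol. Mast cells were sorted as CD45+ F4/80- CD64- CD117+ ST2+ from enzymatically digested skin. Mice of both sexes were used in the study, and the sex and litter of the pooled fetuses are not known here. P-values therefore measure the spread between pools.

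A cell that divides first copies its DNA and then separates the copies. CDK1 with its cyclin partners starts mitosis, kinetochores attach the condensed chromosomes to the spindle, and the spindle assembly checkpoint holds back the anaphase-promoting complex until every chromosome is attached. That complex then marks securin and cyclin B for destruction, and a contractile ring splits the cell. Most transcripts of these proteins accumulate only as a cell approaches division, so in tissue they are used as marks of proliferating cells. Mast cells of the skin are seeded before birth by precursors that can still divide. In bulk RNA, fewer dividing cells and less RNA of these genes per dividing cell cannot be told apart.

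The shared timing of mitotic genes is known to rest on short promoter elements, the cell cycle genes homology region (CHR), bound by the MuvB complex, and the CCAAT box, bound by NF-Y. RefSeq promoter windows of 300 bases (250 before to 50 after the start of transcription, build GRCm38.p6) were matched by symbol for 39 of the 46 genes. Ccna2, Cdc25c, Foxm1, Aurkb, Incenp, Kif20a and Tpx2 had no window in the table. A CHR was searched as TTTGAA or TTCGAA and a CCAAT box as CCAAT, each on both strands, and the motifs share no overlap in the sequences shown. Of the 42 windows of these genes 34 (81.0%) held a CHR, against 19.2% of all 32851 windows in the table. A CCAAT box was in 33 (78.6%), against 37.4%, and both were in 30 (71.4%), against 7.52%. Of the 64 windows of other mitosis genes, 57.8% held a CHR, 62.5% a CCAAT box and 37.5% both. Of the 36 windows of DNA replication genes, 16.7% held a CHR, 55.6% a CCAAT box and 13.9% both. A match of these letters is not evidence of binding.

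The promoters of the 5 genes with the highest mean level per kilobase over the 6 libraries, among those with a CHR in the window, are shown from 230 bases before to 20 after the start site, 5′ to 3′ on the gene's strand, with both motifs in capitals (on the other strand a CCAAT box reads ATTGG and the first form of the CHR reads TTCAAA). All 5 lie on the minus strand: Mki67 at chr7:135716360-135716609, Top2a at chr11:99024170-99024419, Ccnb2 at chr9:70421535-70421784, Ncapd2 at chr6:125191567-125191816 and Kif23 at chr9:61946780-61947029. They were picked by level, not by how they moved. Ncapd2 fell after prenatal stress, and Mki67 and Top2a had lower means and did not pass. The fold changes of Ccnb2 and Kif23 were within 1 standard error of 0. Whether these genes differ from each other, and any part of the element, was not tested.
Mki67: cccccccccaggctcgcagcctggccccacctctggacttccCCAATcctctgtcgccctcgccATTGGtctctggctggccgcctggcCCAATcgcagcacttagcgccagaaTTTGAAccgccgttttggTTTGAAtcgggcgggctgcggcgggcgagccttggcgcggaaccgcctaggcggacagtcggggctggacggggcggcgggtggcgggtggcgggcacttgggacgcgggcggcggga
Top2a: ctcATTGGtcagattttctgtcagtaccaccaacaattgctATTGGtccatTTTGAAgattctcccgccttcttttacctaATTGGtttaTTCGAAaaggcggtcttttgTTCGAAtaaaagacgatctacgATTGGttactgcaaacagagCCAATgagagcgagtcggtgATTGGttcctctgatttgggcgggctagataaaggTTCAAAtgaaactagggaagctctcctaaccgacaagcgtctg
Ccnb2: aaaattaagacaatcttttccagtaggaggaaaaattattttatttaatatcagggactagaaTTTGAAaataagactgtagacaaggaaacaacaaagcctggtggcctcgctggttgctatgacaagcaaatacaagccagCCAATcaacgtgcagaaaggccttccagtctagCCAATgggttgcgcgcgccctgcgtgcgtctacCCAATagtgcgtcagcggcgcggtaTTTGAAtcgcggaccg
Ncapd2: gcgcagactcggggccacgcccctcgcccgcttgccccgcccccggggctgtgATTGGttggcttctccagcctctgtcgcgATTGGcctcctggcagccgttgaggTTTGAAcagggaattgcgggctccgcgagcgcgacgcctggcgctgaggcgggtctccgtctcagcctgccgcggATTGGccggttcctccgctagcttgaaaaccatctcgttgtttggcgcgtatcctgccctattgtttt
Kif23: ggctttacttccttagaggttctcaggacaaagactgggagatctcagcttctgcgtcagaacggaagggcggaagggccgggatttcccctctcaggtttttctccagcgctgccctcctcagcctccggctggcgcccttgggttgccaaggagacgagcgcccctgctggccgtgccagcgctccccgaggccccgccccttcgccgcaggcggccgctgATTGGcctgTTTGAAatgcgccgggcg

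The CHR nearest the start site began 98 bases before it in Mki67, 23 in Top2a and 123 in Ncapd2. It began at base 5 from the start site in Ccnb2 and at base 3 in Kif23. The bases checked downstream of the Kif23 start matched no annotated transcript of that gene, so its positions are less certain. Those of Mki67, Top2a, Ccnb2 and Ncapd2 matched. In Kif23 the single CCAAT box began 7 bases before the start, and in Ccnb2 the 3 boxes began at positions -87, -54 and -21.

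The 6 libraries held 51710555 to 74735139 counts assigned to genes, and the genes of mitosis and cytokinesis were well covered: the lowest count, that of Cdc25c in stress replicate 2, was 399. Levels are given as CPM, the count as a share of the library size scaled with its TMM factor, and log2 fold changes, prenatal stress minus control, with their standard error (SE). A gene was called when its adjusted p from edgeR's quasi-likelihood test, adjusted by Benjamini and Hochberg's method over all genes tested, was under 0.05. The mast cell label held in every library: Kit, the stem cell factor receptor (CD117), was at 1635 to 2325 CPM, and Cpa3, mast cell carboxypeptidase, at 21723 to 41409 CPM. Macrophage transcripts were present as well, with Adgre1, which encodes F4/80, at 244 to 438 CPM. The summed level of 6 erythroid genes was 9.17, 19.1 and 10.6 CPM in control replicates 1, 2 and 3 and 8.19, 6.74 and 8.94 CPM in stress replicates 1, 2 and 3, highest in control replicate 2 and lowest in stress replicate 2, the same libraries as for the mitotic sum. That of 5 neutrophil genes was 140.3 CPM in control replicate 2 and 46.4 to 75.3 CPM in the others. Sums were 76.8 to 204.6 CPM for 6 fibroblast genes and 42.1 to 87.0 CPM for 5 lymphoid genes. Of the lymphoid genes Il7r was called higher (means of 22.0 and 54.1 CPM), and 3 of the 5 had fold changes below 0. The T cell gene Cd3g was at 7.54, 2.47 and 1.44 CPM in the controls and 1.29, 1.02 and 1.03 CPM after stress (adjusted p = 0.0841). Trdc was at 2.27, 0.578 and 0.264 CPM and at 0.0595, 0.260 and 0.126 CPM (adjusted p = 0.0806). Both were highest in control replicate 1. The 5 melanocyte genes were all called higher after stress, with sums of 13.9 to 19.5 CPM in the controls and 28.5 to 69.8 CPM in the stress libraries. These 5 calls became 2, 0 and 1 without control replicate 1, 2 or 3 and 1 without stress replicate 1 or 2.

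Transcripts of mitosis and cytokinesis were slightly lower after prenatal stress as a group. Of the 46 genes, 5 fell, 0 rose and 41 did not pass. The 5 were Ncapd2, Incenp, Aurka, Bub1b and Kif20a, which act in chromosome condensation, at the centromere, at the spindle poles, in the checkpoint and at the midzone, with falls of 16.9% to 22.9%. The log2 fold change was below 0 in 43 of the 46 and above 0 in Ube2c, Kif23 and Pttg1, of which Ube2c alone stayed above 0 with library totals. The median was -0.17, beside -0.0039 over all genes tested. The 5 calls are 10.9% of the genes, where 1.85% of all genes tested were called lower, 4.34% higher and 6.19% in either direction. An unadjusted p under 0.05 with a lower level was reached by 27 of them (58.7%), against 11.6% of all genes, and with a higher level by 1, against 13.3%.

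**Figure D1:**
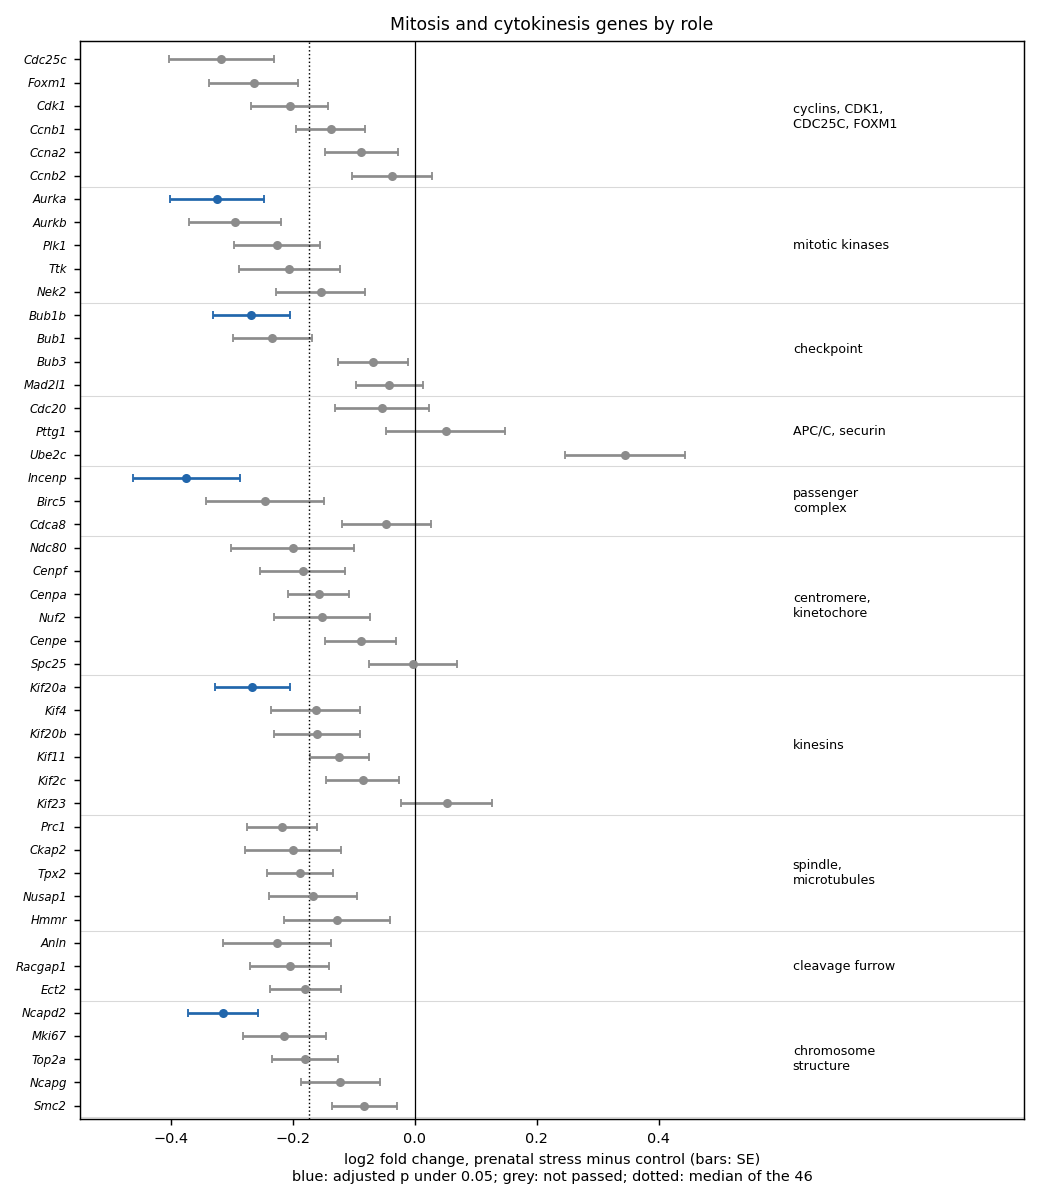
Log2 fold change (prenatal stress minus control, horizontal axis, bars are the standard error) of the 46 genes grouped by role. The 5 blue points passed an adjusted p of 0.05, the dotted line is the median of -0.17, and Ube2c at 0.34 lies farthest to the right.

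The summed level of the 46 genes was 3342, 3492 and 3416 CPM in control replicates 1, 2 and 3 and 3053, 2926 and 3173 CPM in stress replicates 1, 2 and 3. All 3 stress pools lay below all 3 controls, with control replicate 2 the highest and stress replicate 2 the lowest. Mki67 and Top2a, with control means of 491.6 and 406.8 CPM, weigh most in this sum. After each gene's mean over the libraries was subtracted, the median log2 CPM of the 46 was 0.055, 0.125 and 0.080 in the controls. In stress replicates 1, 2 and 3 it was -0.093, -0.147 and -0.010. Control replicate 2 held the highest level of 31 of the 46 genes, and stress replicate 2 the lowest level of 27. All stress libraries lay below all controls in 25 genes (54.3%) and above them in 1, Ube2c, where 14.5% and 16.0% of all genes tested did so. The genes moved together across libraries: over the 1035 pairs of genes the median Pearson correlation over 6 libraries was 0.785, and it was 0.57 after the group means were removed. These points share library, depth and scaling factor, and the same correlation was not computed over all genes tested.

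**Figure D2:**
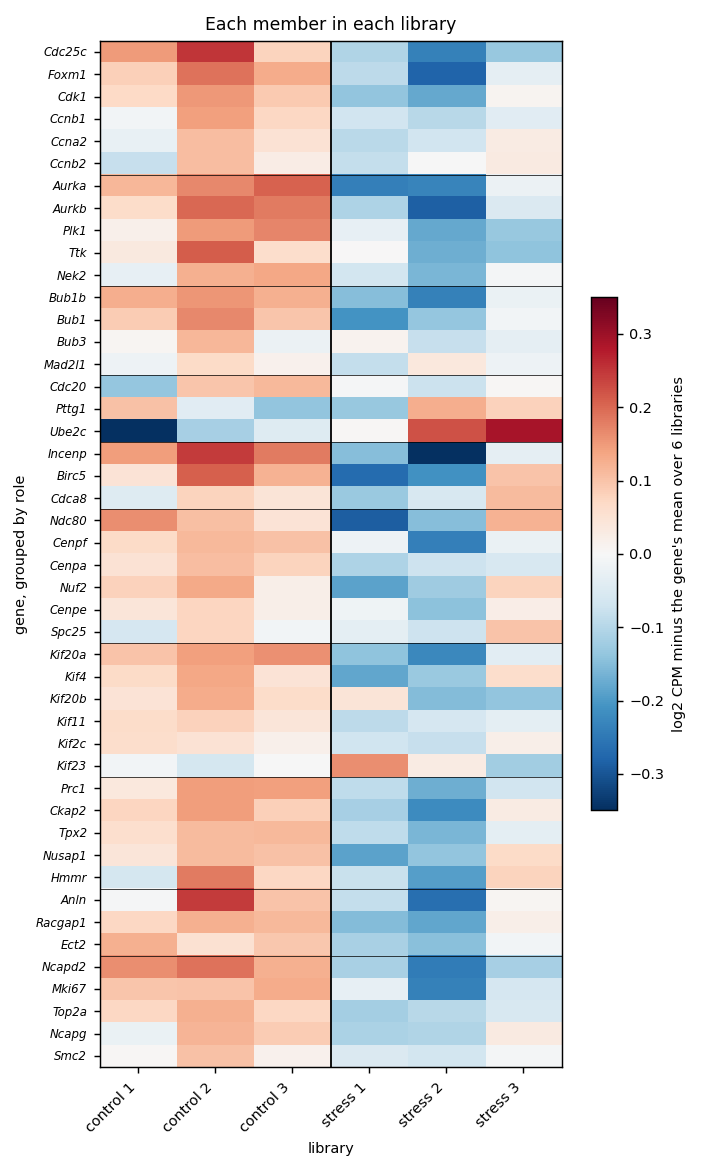
Log2 CPM of each gene in each library minus the gene's mean over the 6 libraries (colour scale), with genes in rows grouped by role and libraries in columns. The control columns are mostly red and those of stress replicates 1 and 2 mostly blue, replicate 2 most of all. The column of stress replicate 3 holds both colours, with a median of -0.010. The row of Ube2c runs the other way.

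The number of calls depended on which libraries were compared. Without stress replicate 3 the fit called 20 of the 46 lower (7.69% of all genes were called lower in that fit). It called 1 without stress replicate 1 (0.676% of all genes) and 0 without stress replicate 2 (0.164%). It also called 0 without control replicate 1, 2 or 3, where 0.410%, 0.135% and 0.624% of all genes were called lower. The median stayed between -0.22 and -0.15 in these 6 fits. Scaling by library totals in place of TMM moved the median of all genes to -0.119, gave 22 lower (9.16% of all genes) and a median of -0.29. Of all calls 26.5% were higher under that scaling, against 70.0% with TMM. The distance of the median from that of all genes was -0.169 under both.

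Macrophage markers moved with the mitotic genes in part. The summed level of 16 macrophage genes was 7134, 8100 and 8114 CPM in the controls and 5859, 5440 and 8340 CPM in stress replicates 1, 2 and 3. Of the 16 genes, 1 was called higher, 1 lower and 14 did not pass, and none of the defining markers was at 0. Without stress replicate 3, the fit that called 20 of the 46 mitotic genes lower, 11 of the 16 macrophage genes were called lower too. Stress replicate 3, whose macrophage sum lay above that of every control, had a mitotic sum of 3173 CPM, below the lowest control at 3342 CPM. With the mean log2 level of the macrophage genes as a covariate, 40 of the 46 fold changes were below 0, the median was -0.11, and Ncapd2 was the 1 gene still called lower (1.48% of all genes were called lower). Of 12 mast cell markers 6 were called higher, 0 lower and 6 did not pass, and their summed level was 71174, 59015 and 71283 CPM in the controls and 91980, 102871 and 85382 CPM in the stress libraries. Control replicate 2, the highest in mitotic transcripts, had the lowest mast cell sum, and stress replicate 2, the lowest in mitotic transcripts, the highest. The mast cell calls numbered 11 without stress replicate 3, 2 without control replicate 2, and 3 without any one other library or with the macrophage covariate. The macrophage covariate was 7.963, 8.161 and 8.172 in control replicates 1, 2 and 3. In stress replicates 1, 2 and 3 it was 7.745, 7.608 and 8.209. It varied with group in part, so with 6 libraries the fit cannot separate it from group. Of 9 progenitor markers 2 were called higher (Gfi1 and Hmga2), 2 lower (Sox4 and Lin28b) and 5 did not pass. Of all genes tested 4.34% were called higher and 1.85% lower. The calls of Hmga2 and Sox4 held without any one library, and those of Gfi1 and Lin28b did not. The part of the macrophage, mast cell, progenitor, melanocyte, erythroid, lymphoid and neutrophil levels in the result was not tested.

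**Figure D3:**
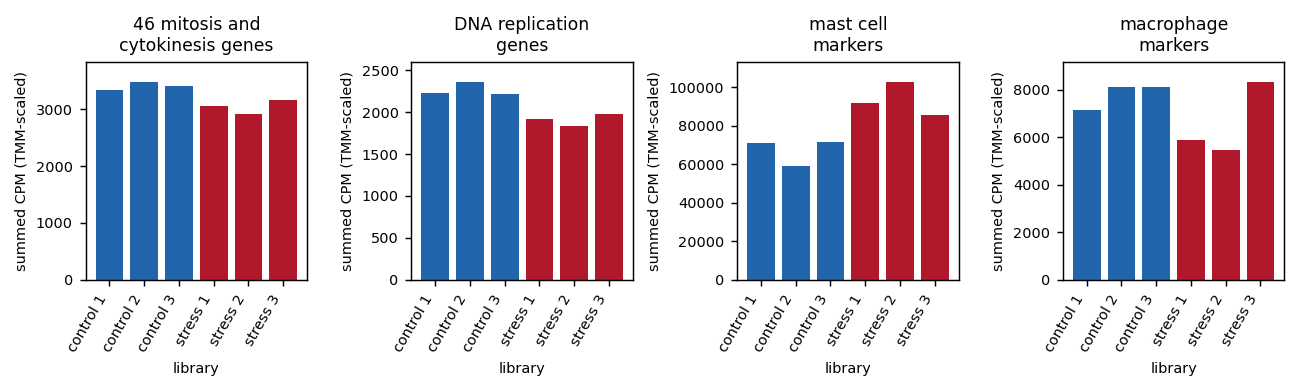
Summed CPM (vertical axis, from 0) of 4 gene lists in each of the 6 libraries, controls in blue and prenatal stress in red. The sums for the 46 genes and for DNA replication are lower in every stress library than in every control, the mast cell sum is higher in every stress library, and the macrophage sum of stress replicate 3 is above the controls.

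Among the regulators that start mitosis 0 of 6 genes passed, and all 6 had lower mean levels. Cdk1, the mitotic kinase itself, was at 78.4, 83.0 and 79.6 CPM in the controls and at 67.9, 66.0 and 75.2 CPM after stress, with no overlap (log2 fold change -0.20 ± 0.06, adjusted p = 0.0889). Cdc25c, the phosphatase that activates it, was at 9.68, 10.4 and 9.21 CPM and at 8.11, 7.40 and 7.97 CPM (-0.32 ± 0.09, adjusted p = 0.0635). Foxm1, a transcription factor that drives late cell cycle genes, was at 46.5, 50.1 and 48.0 CPM and at 41.2, 36.1 and 43.0 CPM (-0.26 ± 0.07, adjusted p = 0.0678). In each of these the lowest control lay above the highest stress pool. The cyclins had smaller fold changes. Ccnb2, the highest of the group per kilobase of exon, was at 44.1, 50.3 and 47.6 CPM in the controls and at 44.0, 46.6 and 47.7 CPM after stress, so that 2 stress pools lay within the range of the controls and replicate 1 just below it (-0.04 ± 0.07, adjusted p = 0.772). Ccna2, cyclin A2, was at 98.7 ± 4.61 and 92.9 ± 4.24 CPM (mean ± SD, n = 3 pools, adjusted p = 0.393). Ccnb1, cyclin B1, was at 70.0 ± 3.69 and 63.6 ± 1.29 CPM (adjusted p = 0.177), and 18.9% of its transcript 75-mers also occur in pseudogenes, so that its level is uncertain.

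Of the 5 mitotic kinases 1 fell. Aurka, the Aurora kinase of the spindle poles, was at 23.1, 23.9 and 24.5 CPM in the controls and at 18.0, 18.1 and 20.9 CPM after stress. The groups did not overlap, with stress replicate 3 nearest the controls (log2 fold change -0.32 ± 0.08, adjusted p = 0.0445). Aurkb, the Aurora kinase of the passenger complex, was at 38.5, 42.4 and 41.8 CPM and at 34.2, 30.2 and 35.6 CPM (-0.30 ± 0.08, adjusted p = 0.0536). Its values did not overlap either. Plk1, Ttk and Nek2, which act in centrosome maturation, in the checkpoint and in centrosome separation, had log2 fold changes of -0.23, -0.21 and -0.15 (adjusted p = 0.0926, 0.167 and 0.225).

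Of the 4 checkpoint genes 1 fell and 3 did not pass, and all 4 had lower mean levels. Bub1b, which encodes BUBR1, an inhibitor of the anaphase-promoting complex, fell from 77.7, 79.2 and 77.5 CPM to 64.2, 60.4 and 70.1 CPM (-0.27 ± 0.06, adjusted p = 0.0436). The 3 controls lay within 2 CPM of each other, and every stress pool was below them. Bub1, the kinase that recruits other checkpoint proteins to kinetochores, was at 55.7 ± 1.69 and 47.4 ± 3.32 CPM (-0.23 ± 0.06, adjusted p = 0.0663). Bub3, which binds both and is also known to act in interphase cells, was at 66.6, 71.8 and 65.4 CPM in the controls and at 66.8, 62.6 and 64.9 CPM after stress. These ranges overlapped (-0.07 ± 0.06, adjusted p = 0.501). Mad2l1, which encodes MAD2, was at 69.2 ± 2.01 and 67.2 ± 2.78 CPM (adjusted p = 0.684).

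Of the 3 genes that act with or on the anaphase-promoting complex 0 passed. Their median log2 fold change was 0.05, and -0.07 with library totals. Ube2c, the ubiquitin-conjugating enzyme of the complex, was at 29.2, 34.5 and 36.2 CPM in the controls and at 37.5, 43.6 and 45.7 CPM after stress. Every stress pool was above every control, though stress replicate 1 and control replicate 3 lay close together (0.34 ± 0.10, adjusted p = 0.0743). It passed with DESeq2 (adjusted p = 0.0172), with the macrophage covariate (0.0343) and with no filter (0.0125), and in no fit with 1 library left out (0.0659 to 0.217). Of its exon length 22.8% is overlapped by Tnnc2 on the opposite strand, and the strand setting of the counting is not given in the sources used here. Cdc20, the activator of the complex, was at 27.0, 31.6 and 32.0 CPM in the controls and at 29.5, 28.1 and 29.7 CPM after stress, all inside the range of the controls (-0.05 ± 0.08, adjusted p = 0.716). Pttg1, which encodes securin, the inhibitor of sister chromatid separation, was at 12.3 ± 1.04 and 12.7 ± 1.20 CPM (adjusted p = 0.795).

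Within the chromosomal passenger complex, which corrects faulty attachments and later marks the cleavage plane, 1 of 3 genes fell. Incenp, its scaffold, was at 101.6, 108.7 and 104.2 CPM in the controls and at 82.8, 69.8 and 89.9 CPM after stress. This was the largest fall among the 46 genes (-0.37 ± 0.09, adjusted p = 0.043), and the stress pools spread over 20 CPM with replicate 2 the lowest. Birc5, which encodes survivin, was at 45.7, 51.1 and 48.1 CPM and at 36.6, 38.2 and 47.3 CPM. Stress replicate 3 lay among the controls and the other stress pools below them (-0.25 ± 0.10, adjusted p = 0.161, and 0.00637 without that library). Cdca8, which encodes borealin, was at 46.1 ± 2.03 and 44.6 ± 3.85 CPM (adjusted p = 0.738).

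No centromere or kinetochore gene passed (0 of 6), with log2 fold changes of -0.20 to -0.0030. Cenpa, the histone variant that marks centromeres, was at 66.3, 69.0 and 67.5 CPM in the controls and at 59.4, 60.8 and 61.6 CPM after stress. Both groups were tight and did not overlap (-0.16 ± 0.05, adjusted p = 0.0942). Ndc80 and Nuf2, partners in the complex that grips microtubules, had stress replicate 3 at 28.6 and 32.7 CPM, inside the control ranges of 27.2 to 29.5 and 31.5 to 34.0 CPM. The other stress pools lay lower, at 21.6 and 23.7 CPM for Ndc80 and 27.2 and 28.4 CPM for Nuf2. Spc25, which joins the same complex to the chromosome, was at 21.6 ± 1.01 and 21.6 ± 1.37 CPM (adjusted p = 0.985). Cenpf, a large kinetochore protein, had -0.18 ± 0.07 (adjusted p = 0.144), and the motor Cenpe had -0.09 ± 0.06 (adjusted p = 0.38).

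Of the 6 kinesins 1 fell. Kif20a, a motor of the central spindle needed for cytokinesis, was at 48.1, 49.6 and 50.2 CPM in the controls and at 40.8, 38.4 and 43.8 CPM after stress, with no overlap (-0.27 ± 0.06, adjusted p = 0.0423). Of its exon length 29.3% is overlapped by Cdc23 on the opposite strand. Kif23, the motor subunit of centralspindlin and the most abundant kinesin per kilobase here, was at 164.2, 158.2 and 165.0 CPM in the controls and at 185.0, 168.6 and 151.9 CPM after stress, so that the stress pools lay on both sides of the controls (0.05 ± 0.07, adjusted p = 0.711). Racgap1, the other subunit of centralspindlin, did not share that pattern. It was at 92.3, 95.7 and 95.0 CPM in the controls and at 79.0, 77.4 and 89.0 CPM after stress, with no overlap (-0.21 ± 0.06, adjusted p = 0.0926). Kif11, which pushes spindle poles apart, Kif20b, Kif4 and Kif2c had log2 fold changes of -0.12, -0.16, -0.16 and -0.09 (adjusted p = 0.162, 0.198, 0.208 and 0.408).

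In the genes of spindle assembly and of the cleavage furrow 0 of 8 passed, and all 8 had lower means. Prc1, which bundles the microtubules of the midzone, was at 72.8, 78.5 and 78.4 CPM in the controls and at 66.7, 63.1 and 67.8 CPM after stress, with no overlap (-0.22 ± 0.06, adjusted p = 0.0571). Tpx2, the activator of Aurora A on the spindle, was at 78.7, 81.6 and 81.7 CPM and at 71.0, 67.6 and 73.8 CPM (-0.19 ± 0.05, adjusted p = 0.0753). Here too the highest stress pool was below the lowest control. Nusap1, Ckap2 and Hmmr, all microtubule-binding proteins, had log2 fold changes of -0.17, -0.20 and -0.13. Anln, the actin-binding protein anillin, was at 36.4 ± 3.17 and 31.1 ± 2.94 CPM (adjusted p = 0.159). Ect2, which activates RhoA at the furrow, was at 45.0 ± 1.14 and 39.7 ± 1.97 CPM (adjusted p = 0.1).

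Among the genes of chromosome structure 1 of 5 fell. Ncapd2, a subunit of condensin I, was at 156.7, 159.6 and 152.5 CPM in the controls and at 129.3, 118.2 and 129.3 CPM after stress. The gap between the groups was wider than the range within either (-0.31 ± 0.06, adjusted p = 0.02, the smallest of the 46). Ncapg, of the same complex, was at 51.8 ± 2.65 and 47.6 ± 2.70 CPM (adjusted p = 0.277), and Smc2, the ATPase subunit of both condensins, at 115.7 ± 4.41 and 109.3 ± 2.30 CPM (adjusted p = 0.367). Mki67, which encodes the proliferation marker Ki-67, was the most abundant of the 46 per kilobase, at 48.9 CPM per kilobase in the controls and 42.1 after stress. Its CPM was 487.9, 488.2 and 498.6 in the controls and 446.7, 386.9 and 437.6 after stress, with no overlap (-0.21 ± 0.07, adjusted p = 0.0955). Top2a, the topoisomerase that untangles sister chromatids, was at 401.6, 416.8 and 402.1 CPM and at 352.2, 357.4 and 367.9 CPM (-0.18 ± 0.05, adjusted p = 0.085). Its groups did not overlap either. Per kilobase the levels ran from 48.9 CPM for Mki67 and 45.1 for Top2a in the controls down to 3.40 for Cenpf, 2.99 for Ttk and 1.98 for Cdc25c.

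**Figure D4:**
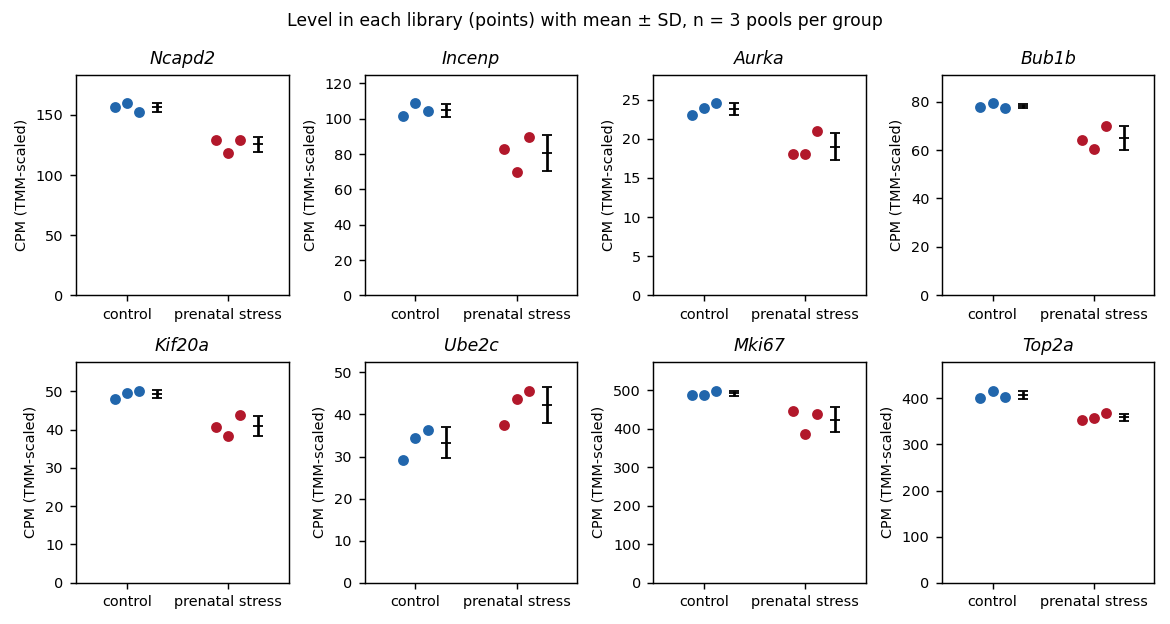
CPM (vertical axes, from 0) of 8 genes in each library (points), with mean and SD over 3 pools per group. The first 5 panels are the genes called lower, and Ube2c shows the stress pools above the controls, while Mki67 and Top2a, which did not pass, show the stress pools below them.

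None of the 5 calls needed stress replicate 3, and none held without control replicate 1, 2 or 3 or stress replicate 2. Ncapd2 kept its call without stress replicate 1 (adjusted p = 0.0434) or 3 (0.00669) and lost it without any one control or stress replicate 2 (0.0606 to 0.085). Incenp, Aurka, Bub1b and Kif20a kept theirs without stress replicate 3 alone (0.00454 to 0.00721). They lost it without any one of the other 5 libraries, with adjusted p of 0.0852 to 0.17 for Incenp, 0.0947 to 0.154 for Aurka, 0.0906 to 0.158 for Bub1b and 0.0838 to 0.154 for Kif20a. All 5 had a log2 fold change below 0 in each of these fits.

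Other cell cycle genes were read from lists that were written with the results for the 46 known. In the list of other mitosis genes 4 of 69 measured (5.8%) fell, where 1.85% of all genes tested were called lower. Of the 69, 0 rose and 65 did not pass, with a median of -0.19. Ccnf, cyclin F, fell from 19.3 ± 0.91 to 14.2 ± 0.691 CPM (adjusted p = 0.0145). Espl1, which encodes separase, the protease that cuts cohesin, fell from 40.2 ± 1.12 to 30.6 ± 1.98 CPM (adjusted p = 0.0145). Cdca2 and Spag5, a phosphatase subunit of mitotic exit and a spindle protein, had log2 fold changes of -0.27 and -0.29. The calls of Ccnf and Espl1 ended without control replicate 2 or stress replicate 2 (adjusted p of 0.0569 to 0.067), that of Espl1 also without control replicate 3. Those of Cdca2 and Spag5 ended without any library other than stress replicate 3 (up to 0.15). Without stress replicate 3, 21 of the 69 were lower and 1 was higher, where 7.69% of all genes were called lower.

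DNA replication genes, which are transcribed before mitosis, were called more often: 15 of 40 (37.5%) were lower, where 1.85% of all genes tested were. Of the 40, 0 were higher and 25 did not pass, with a median of -0.25. The count of lower genes was 1 without control replicate 2 or stress replicate 2 (0.135% and 0.164% of all genes). It was 5, 6 and 6 without control replicate 1, control replicate 3 or stress replicate 1 (0.410%, 0.624% and 0.676% of all genes). Whether this differs from the mitotic genes was not tested. Uhrf1, which carries DNA methylation through replication, fell from 108.8 ± 4.04 to 79.1 ± 4.95 CPM (-0.46 ± 0.06, adjusted p = 0.00822), and the call held without any one library. Chaf1a, of the chromatin assembly factor, the helicase subunit gene Mcm7 and the DNA ligase gene Lig1 had log2 fold changes of -0.40, -0.37 and -0.39. Those 3 calls ended without control replicate 2 or stress replicate 2 (adjusted p of 0.0529 to 0.064). Without stress replicate 3, 22 of the 40 were lower (7.69% of all genes). With the macrophage covariate 7 were (1.48% of all genes).

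Of 19 genes in the list of DREAM and MuvB regulators, which also holds other E2F genes, 3 fell, 0 rose and 16 did not pass (median -0.10). The 3 are 15.8% of the list, where 1.85% of all genes tested were called lower. The log2 fold change was below 0 in 13 and above 0 in 6. It was highest in Lin54, a MuvB subunit gene (0.21 ± 0.08, adjusted p = 0.167). Mybl2, which encodes B-MYB, was at 18.3, 18.8 and 15.3 CPM in the controls and at 12.9, 12.5 and 12.5 CPM after stress (-0.47 ± 0.09, adjusted p = 0.0221). The repressor genes E2f7 and E2f8 fell by 0.40 and 0.35 on the log2 scale (adjusted p = 0.0291 and 0.0387). All 3 calls ended without control replicate 1, control replicate 2 or stress replicate 2, with adjusted p up to 0.157. The E2f7 and E2f8 calls ended without control replicate 3 too, and those of Mybl2 and E2f7 without stress replicate 1. With the macrophage covariate the E2f7 and E2f8 calls ended. Of 16 genes of the anaphase-promoting complex and its regulators 1 (6.25%) fell, Fbxo5, which encodes the inhibitor EMI1 (-0.34 ± 0.08, adjusted p = 0.0476). That call ended without any library other than stress replicate 3 (up to 0.16), with no filter, with limma-voom and with the macrophage covariate. The median of the list was 0.02, or -0.10 with library totals.

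Of 11 G1 cyclins, kinases and their regulators, 1 rose, 0 fell and 10 did not pass, where 4.34% of all genes tested were called higher. Ccnd2, cyclin D2, which starts the cell cycle in response to growth factors, was at 232.3, 190.7 and 209.5 CPM in the controls and at 381.8, 411.4 and 354.7 CPM after stress. Every stress pool was far above every control (0.86 ± 0.09, adjusted p = 0.00218), and the call held without any one library. Cdk4, a kinase partner of cyclin D2, was at 213.9, 212.7 and 219.9 CPM in the controls and at 184.8, 189.0 and 190.7 CPM after stress (-0.20, adjusted p = 0.0566). Of 10 measured CDK inhibitors and antiproliferative genes 0 passed. The one with the smallest p, Cdkn1a, which encodes p21, was at 318.9, 299.1 and 340.6 CPM in the controls and at 348.3, 359.0 and 395.3 CPM after stress (0.20, adjusted p = 0.133).

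**Figure D5:**
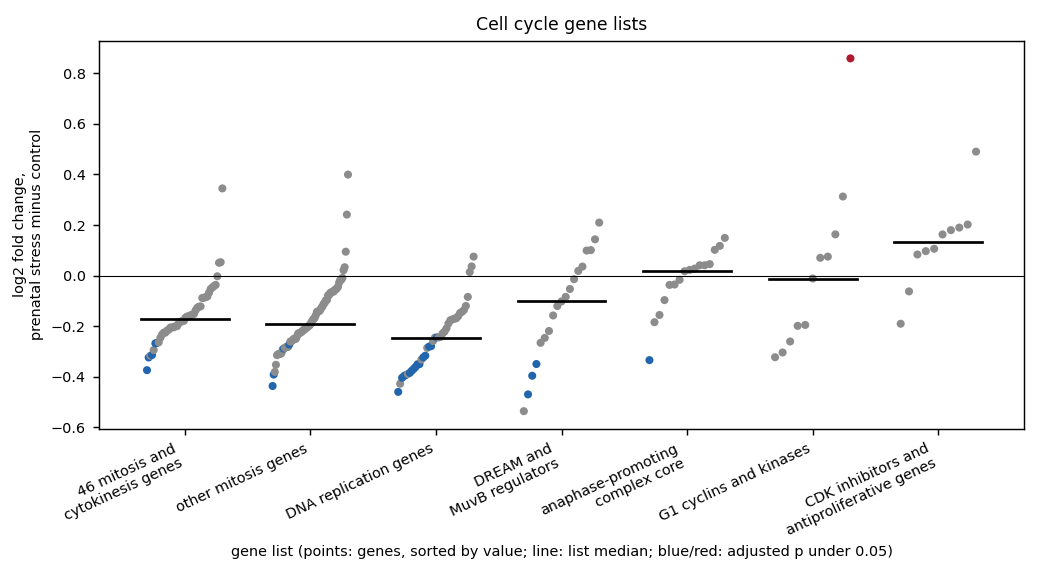
Log2 fold change (prenatal stress minus control, vertical axis) of each gene in 7 cell cycle lists, with the list median as a line and genes with an adjusted p under 0.05 in blue (lower) or red (higher). The medians of the 46 genes, of other mitosis genes and of DNA replication genes are -0.17, -0.19 and -0.25, and the red point is Ccnd2 at 0.86.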

How the data were processed

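The tables the authors deposited hold, for each library, unnormalised counts by gene symbol. FastQC, STAR 2.4 and HTSeq 0.9.1 and the builds GRCm39 and mm10 are named in the submitters' processing notes, with no role for either build. Libraries were stranded, poly-A selected and paired-end, per the labels' protocols. How the counting treated strand, and which annotation it used, is not given in the sources used here. The 5 rows that name no gene were left out, and 79.7% to 81.4% of reads tallied were in genes. Reads with several alignments are tallied apart, so genes with copies can be undercounted.

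Counts were filtered with filterByExpr (minimum count 10), scaled with TMM and tested across 16716 genes with edgeR 4.0.16 (glmQLFit, glmQLFTest, R 4.3.3), without covariates. The SE is the absolute log2 fold change divided by the square root of F. Exon lengths, overlaps and shared 75-mers came from GENCODE M21 (GRCm38) by symbol, and promoters from RefSeq. A kilobase refers to the union of all annotated exons. The test was tried on simulated counts first. The members and lists were chosen with earlier results of these data known. Genes with values in every library were the called members, the most abundant per kilobase and the smallest p of each role, the extreme fold changes and Bub3, and in the other lists up to 4 called genes or the smallest p. Those of Cdk1, Foxm1, Birc5, Ndc80, Nuf2, Top2a and Cdk4 were added after their values were seen. Alternatives were other scalings and filters, DESeq2 1.42.0, limma-voom (limma 3.58.1), the replicate block, a macrophage covariate and each library left out.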

Additional observations from a re-analysis of the deposited data

How the results depend on the processing

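The median log2 fold change of the 46 genes was below 0 in every setting run, and it moved by more than the spread between replicates with library totals (-0.29) and the macrophage covariate (-0.11). Members called lower were 5 in the main analysis, with RLE or upper-quartile factors and with limma-voom, and 7 with the stricter filter. They were 22 with library totals, 9 with no filter, 13 with DESeq2, 1 with the macrophage covariate, and 0 to 20 with 1 library left out. The share of all genes called lower changed too. It was 1.85% in the main analysis, 1.79% with RLE and 1.98% with upper-quartile factors, 1.76% with limma-voom and 3.16% with the stricter filter. With library totals it was 9.16%, with no filter 2.77%, with DESeq2 4.34%, with the macrophage covariate 1.48%, and with 1 library left out 0.135% to 7.69%. Members called higher were 1, Ube2c, with no filter, DESeq2, the replicate block and the macrophage covariate, and 0 otherwise. All genes called were 2085 with library totals, 1933 with no filter, 1989 with DESeq2, and 196 to 2647 with 1 library left out, against 1035. Other mitosis genes called, 4 in the main analysis, were 28 with library totals, 14 with no filter, 9 with the stricter filter, 16 with DESeq2, 2 with the macrophage covariate and 0 to 22 with 1 library left out. With the replicate block 0 members were called lower (adjusted p of 0.0507 to 0.0767 for the 5) and Ube2c had 0.0338. With that block 622 of all genes were called, and 0.915% of all genes were called lower. Under it 5 DNA replication genes were called lower (15 in the main analysis), 2 other mitosis genes were called lower (4 in the main analysis), 3 mast cell markers were called higher (6 in the main analysis), and the Fbxo5, E2f7 and E2f8 calls ended. Whether same-numbered pools share more than a number is not known here, and these correlations cannot decide it. Those of their deviations from the group means were 0.0954, -0.0188 and 0.0684 for replicates 1, 2 and 3. Stress replicate 1 correlated best with its own number (control replicate 1, 0.0954). Stress replicate 2 did so with control replicate 1 (0.128) and stress replicate 3 with control replicate 2 (0.136). The lowest count of a member in a library was 399. The causes of these differences were not tested.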
